A study of Mus musculus with 14 samples.

Results

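Aminoacyl-tRNA synthetases were followed through all 14 libraries of a bulk RNA sequencing series on transformed mouse embryonic fibroblasts (tMEF), which are fibroblasts from mouse embryos that divide without limit. The genes were taken by their symbols: an amino acid letter followed by ars, with or without the ending 1 or 2, together with Eprs, Farsa and Farsb. The rule found 37 genes among the 52636 in the table. Of these, 20 encode the cytosolic enzymes and 17, with the ending 2, the mitochondrial ones. In these cells the mouse telomere protein TRF1 had been exchanged for that of the naked mole rat (NMR). The wild-type group carried unchanged NMR TRF1, the GLAD group carried Glu69Lys, Val70Ala and Ala75Thr, the TIN group Ala105Thr, and in the double mutant all of these changes were combined. The mutants were cultured in normoxia, which is air, and in hypoxia, which is 1% oxygen. Wild type was cultured in normoxia. This gave 7 groups, each with a library A and a library B. Wild type in hypoxia was not analysed here.

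A synthetase joins 1 amino acid to its transfer RNA and so supplies the ribosome with its building blocks. Cytosolic and mitochondrial ribosomes use separate enzymes for most amino acids, all of them encoded in the nucleus, while Kars and Gars each serve both compartments. Several cytosolic enzymes sit together on scaffold proteins in the multisynthetase complex. Many cytosolic synthetase genes are known targets of ATF4, the transcription factor of the integrated stress response, which is switched on by lack of amino acids and by stress in the endoplasmic reticulum.

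The labels do not say whether libraries A and B came from separate cultures, so p-values rest on a spread between libraries that may be technical. A mutant may be represented by a single cell line, so a substitution and the line that carries it cannot be told apart. The wild-type libraries follow another naming scheme that holds the word mouse, and a batch of their own cannot be told apart from genotype. Depth, estimated from the steps of the low values, was 11916948 to 15023566 reads per library. Levels were deposited as CPM, which put the reads of each library on the same total, and 3 reads corresponded to 0.200 to 0.252 CPM. All levels given below are these CPM scaled by TMM factors, which correct for differences in RNA composition between libraries. The median difference between A and B was 0.203 on the log2 scale in wild type and 0.062 to 0.119 in the other groups. It was taken over the 11718 genes above a cut on mean level, which leaves out genes with low levels. Fibroblast markers were abundant in every library (summed level 6770 to 15500 CPM; Thy1 alone was at or near 0), highest in wild type (14800 to 15500) and lowest in TIN (6770 to 7040). Of the 3 myeloid markers Ptprc and Adgre1 were at or near 0, and Cd68 stood at 7.03 to 17.3 CPM in normoxia and 39.2 to 44.3 CPM in hypoxia. Of the neural markers Tubb3 stood at 58.4 and 60.6 CPM in TIN hypoxia, while Sox10 and Rbfox3 were near 0. Epithelial, endothelial and muscle markers summed to at most 6.27 CPM in any library. In bulk RNA, fewer cells of a type and less RNA per cell cannot be told apart.

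The promoters that hold an ATF4 motif are shown here because the list of ATF4 targets is used throughout. ATF4 with its C/EBP partners is known to bind the composite element TGATGNAA. RefSeq windows of 300 bases (GRCm38.p6, 250 before and 50 after the annotated start) were given for 27 of the 37 genes and were searched on both strands, the reverse reading TTNCATCA. The motif was present in 5 of 8 cytosolic genes from the list of ATF4 targets (62.5%), in 0 of the other 5 cytosolic genes and in 0 of 14 mitochondrial genes. Among all 27025 RefSeq genes with such a window 1219 held it (4.51%). The stretches with the motif in capitals are given 5′ to 3′ on the gene's own strand. For Aars (alanine) they come from chr8:111033684-111033783 and chr8:111033840-111033869, for Gars (glycine) from chr6:55037925-55038000 and for Iars (isoleucine) from chr13:49682126-49682155, all on the plus strand. For Tars (threonine) the stretch is chr15:11399659-11399719 on the minus strand and for Yars (tyrosine) chr4:129189895-129189924 on the plus strand.
Aars, upstream: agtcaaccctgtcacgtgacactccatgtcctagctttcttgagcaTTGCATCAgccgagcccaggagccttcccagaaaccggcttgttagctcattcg
Aars, at the start: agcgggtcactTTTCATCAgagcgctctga
Gars: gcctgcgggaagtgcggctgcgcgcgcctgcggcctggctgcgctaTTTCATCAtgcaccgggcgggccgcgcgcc
Iars: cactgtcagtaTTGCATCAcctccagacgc
Tars: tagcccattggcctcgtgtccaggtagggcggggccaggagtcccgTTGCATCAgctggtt
Yars: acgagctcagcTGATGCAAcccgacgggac

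Counted from the start site, the first base of the motif lay at -112 and at 10 in Aars, at -30 in Gars, at 8 in Iars, at -15 in Tars and at 4 in Yars. In 5 of the 6 stretches the gene's own strand reads TTNCATCA, and in Yars it reads TGATGNAA. A match of these letters is a description of the sequence and shows no binding in these cells.

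All 37 genes passed the filter on low values (at least 1 CPM in at least 2 libraries). Compared per kilobase of exon, cytosolic enzymes had a median level of 33.8 CPM per kb (13.8 to 64.1) and mitochondrial enzymes one of 4.81 CPM per kb (1.04 to 41.2). Nars (asparagine), Gars and Hars (histidine) were the highest, at 64.1, 62.2 and 62.0 CPM per kb. The length used is that of all annotated exons of a gene joined, not of 1 transcript, and the ranking depends on it. Aars, for example, had a mean of 443.5 CPM over 9282 exon bases, which gives 47.8 CPM per kb. Nars2 and Ears2, the mitochondrial enzymes for asparagine and glutamate, were the lowest at 1.04 and 1.29 CPM per kb. Lars2, the mitochondrial leucine enzyme, was the mitochondrial exception at 41.2 CPM per kb, followed by Fars2 (phenylalanine) at 15.5. Summed over the 20 cytosolic genes, the level was 3849 and 4331 CPM in wild type and 2923 and 3072 CPM in GLAD normoxia. It was 3268 and 3451 CPM in GLAD hypoxia, 3752 and 3588 CPM in TIN normoxia and 3483 and 3475 CPM in TIN hypoxia. The double mutant held 3365 and 3468 CPM in normoxia and 3116 and 2998 CPM in hypoxia. The cytosolic sum was thus higher in both hypoxia libraries of GLAD and lower in both of TIN and of the double mutant, with no overlap between the oxygen groups of a mutant.

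Hypoxia moved the family in both directions, and not in the same direction in every mutant. Changes are log2 differences of the scaled CPM plus 0.5, with the standard error (SE) of the limma model. A gene was called, and is said to rise or fall, where its Benjamini-Hochberg adjusted p over all 16157 genes tested was under 0.05. Averaged over the 3 mutants, 4 of 20 cytosolic genes rose and 9 fell (median -0.11), and 3 of 17 mitochondrial genes rose and 10 fell (median -0.19). Over all genes 67.5% were called in this average (30.4% up, 37.1% down) with a median of -0.04, so the number called among the synthetases was close to that of genes in general. Cytosolic genes called down in each of the 3 mutants were Farsa, Farsb, Qars and Rars, and mitochondrial ones included Iars2, Rars2 and Vars2. No synthetase was called up in all 3. For calls in all 3 mutants or in none, the share over all genes is not given here. Sars and Wars in the cytosol, and Aars2, Lars2 and Pars2 in mitochondria, were called in none. Of 5 ribosomal RNA-like genes (Gm42418, AY036118, Gm26917, mt-Rnr1 and mt-Rnr2) 3 rose and 0 fell on average in hypoxia (median 1.00), with 0 falling at unadjusted p under 0.05 as well. Their summed level was 1010 and 942 CPM in GLAD normoxia against 1570 and 1450 CPM in hypoxia, 1580 and 1530 CPM against 3100 and 2910 CPM in TIN, and 1840 and 1180 CPM against 2010 and 2200 CPM in the double mutant. The largest change was that of mt-Rnr1, the small mitochondrial ribosomal RNA, which rose by 2.68 ± 0.23 on average. The part of these RNAs in the synthetase changes was not tested.

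**Figure D1:**
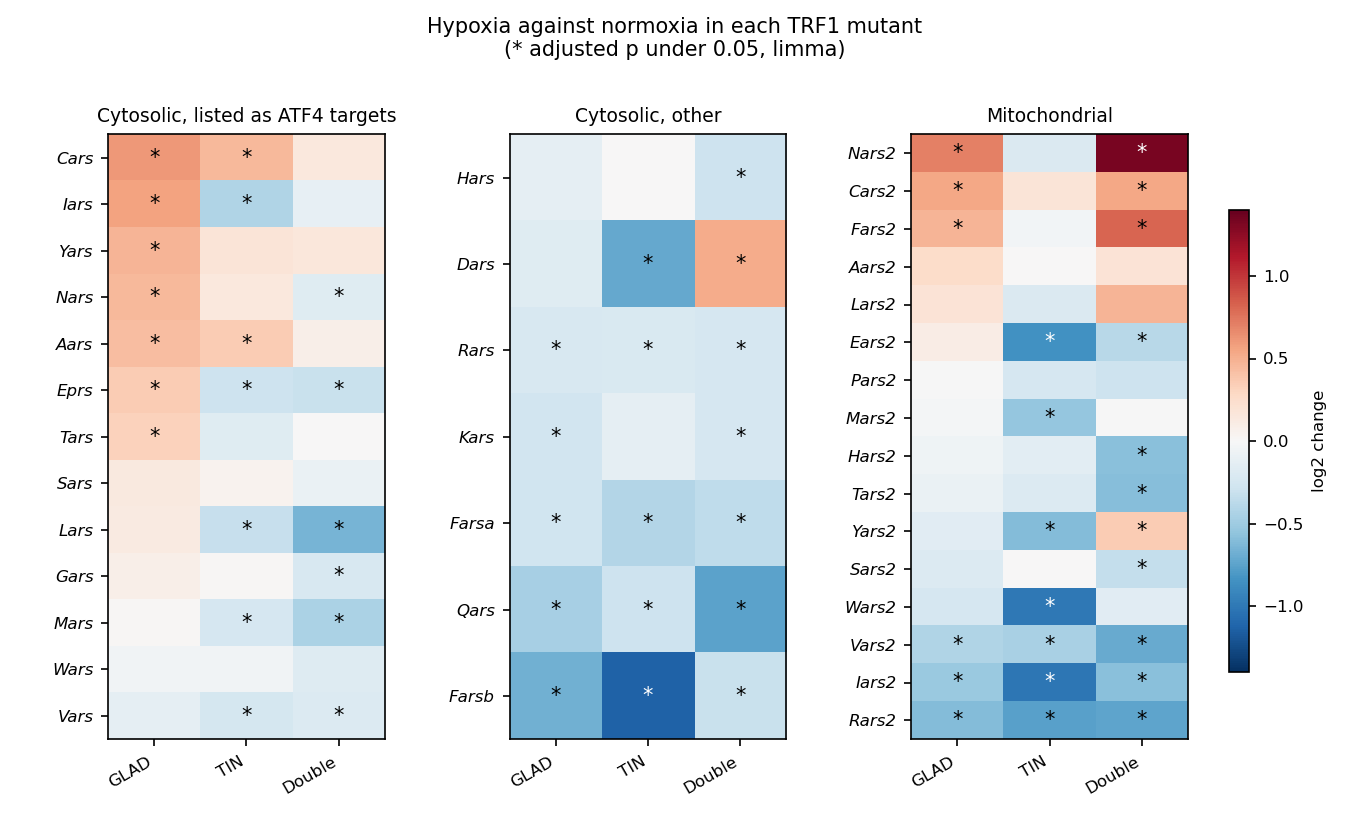
Colour gives the log2 difference of hypoxia minus normoxia for each synthetase (1 row per gene) in GLAD, TIN and the double mutant, in 3 blocks: cytosolic genes listed as ATF4 targets, the other cytosolic genes and 16 of the mitochondrial genes. An asterisk marks adjusted p under 0.05 (limma); the GLAD column of the first block holds 7 rises and 0 falls, the double-mutant column 0 rises and 6 falls.

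The 13 synthetases on the list of ATF4 targets had different counts of rises and falls in the 3 mutants. In GLAD 7 of the 13 rose and 0 fell (median 0.32), in TIN 2 rose and 5 fell (median -0.05), and in the double mutant 0 rose and 6 fell (median -0.17). Of all genes 48.1% were called in GLAD (21.9% up, 26.2% down), 54.1% in TIN (25.5% up, 28.6% down) and 56.1% in the double mutant (25.8% up, 30.3% down). The 7 that rose in GLAD were Aars, Cars, Eprs, Iars, Nars, Tars and Yars. Without double normoxia library B, or without double hypoxia library B, 3 of the 13 were called in the double mutant. With median-of-ratios scaling 4 of the 13 rose in TIN and 5 fell. Over all 20 cytosolic genes 7 rose and 5 fell in GLAD, 2 rose and 10 fell in TIN, and 1 rose and 12 fell in the double mutant, where 7 were called without double normoxia library B or double hypoxia library B. Where 0 synthetases are given here or below as called in a direction by limma, 0 also had an unadjusted p under 0.05 in that direction, except that 1 cytosolic gene was lower in the double mutant than in GLAD in normoxia.

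Cars, which charges cysteine (ENSMUSG00000010755, GRCm38 chromosome 7, 143557230 to 143600090), stood at 71.6 and 72.4 CPM in GLAD normoxia and 109 and 111 CPM in GLAD hypoxia. It stood at 101 and 91.8 CPM in TIN normoxia against 137 and 126 CPM in hypoxia, and at 100.3 and 109.6 CPM in double-mutant normoxia against 116.5 and 116.3 CPM in hypoxia. Both hypoxia libraries were above both normoxia libraries in each mutant, and GLAD normoxia was the lowest group. The change was 0.61 ± 0.09 (SE; adjusted p = 3.2e-05) in GLAD and 0.45 ± 0.09 (adjusted p = 5.5e-04) in TIN. In the double mutant it was 0.15 ± 0.09, which was not called.

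Aars, which charges alanine (ENSMUSG00000031960, GRCm38 chromosome 8, 111033144 to 111057664), stood at 311 and 324 CPM in GLAD normoxia and 405 and 453 CPM in hypoxia, a rise of 0.43 ± 0.08 (adjusted p = 3.7e-04). In TIN it went from 429 and 395 CPM to 527 and 530.1 CPM, a rise of 0.36 ± 0.08 (adjusted p = 0.00148). The double mutant had 426 and 439 CPM in normoxia and 474 and 441 CPM in hypoxia, a difference of 0.08 ± 0.08 that was not called. Aars shares 1326 exon bases, 14.3% of its own, with Exosc6 on the same strand, and Exosc6 changed by 0.09, 0.19 and 0.68 in GLAD, TIN and the double mutant, of which the last was called.

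Iars, the isoleucine enzyme of the multisynthetase complex (ENSMUSG00000037851, GRCm38 chromosome 13, 49682100 to 49734267), went in opposite directions. It stood at 171 and 181 CPM in GLAD normoxia and 254 and 266 CPM in hypoxia. In TIN it stood at 225 and 215 CPM in normoxia and 164 and 165 CPM in hypoxia. In the double mutant the values were 200.4 and 209 CPM in normoxia and 189 and 188 CPM in hypoxia. It rose by 0.56 ± 0.07 in GLAD (adjusted p = 2.5e-06), fell by 0.42 ± 0.07 in TIN (adjusted p = 5.5e-05) and was not called in the double mutant (-0.12 ± 0.07). No libraries of the oxygen groups overlapped within any mutant.

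Lars, the leucine enzyme, which is also known as a leucine sensor of the mTORC1 pathway (ENSMUSG00000024493, GRCm38 chromosome 18, 42202298 to 42262194), fell in TIN and more in the double mutant. The GLAD libraries held 151 and 157 CPM in normoxia and 166 and 172 CPM in hypoxia (0.13 ± 0.07, not called). The TIN libraries held 168 and 164 CPM and then 131 and 135 CPM, a fall by 0.32 ± 0.07 (adjusted p = 0.00135). The double-mutant libraries held 150.5 and 153 CPM and then 98.1 and 94.5 CPM, the lowest of any group, a fall by 0.65 ± 0.07 (adjusted p = 4.7e-07). Eprs, which charges glutamate and proline with 1 protein, rose in GLAD (0.35 ± 0.07) and fell in TIN (-0.29 ± 0.07) and in the double mutant (-0.31 ± 0.07). Nars rose in GLAD (0.45 ± 0.07), was not called in TIN (0.15 ± 0.07) and fell in the double mutant (-0.17 ± 0.07). Gars stood at 178 and 183 CPM in GLAD normoxia and 186 and 195 CPM in hypoxia, and at 210.4 and 204 CPM in TIN normoxia and 215 and 204 CPM in hypoxia, with no call in either mutant. In the double mutant Gars fell by 0.22 ± 0.07, from 172 and 177 CPM to 151 and 148 CPM.

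The rest of the ATF4 programme, 25 genes for amino acid synthesis and uptake and for the stress response itself, was read beside these enzymes. In GLAD 16 of the 25 rose and 3 fell (median 0.52), in TIN 15 rose and 2 fell (median 0.40), and in the double mutant 10 rose and 12 fell (median -0.13). Over all genes 21.9% rose and 26.2% fell in GLAD, 25.5% and 28.6% in TIN, and 25.8% and 30.3% in the double mutant. The mRNA of Atf4 itself rose in all 3, by 0.76 ± 0.10, 1.36 ± 0.10 and 0.56 ± 0.10 in GLAD, TIN and the double mutant. Vldlr, a lipoprotein receptor, and the pseudokinase Trib3 changed most on average, by 1.83 ± 0.05 and 1.64 ± 0.07. Asns, asparagine synthetase, rose in GLAD (0.94 ± 0.07) and TIN (0.54 ± 0.07) and fell in the double mutant (-0.52 ± 0.07). The largest rise of Atf4 mRNA was in TIN, where 2 of the 13 listed synthetases rose and 5 fell. These values are RNA levels, and the part of ATF4 in the synthetase changes was not tested. Ddit3, a stress transcription factor, rose by 1.28 to 2.03 and shares 68 exon bases with Mars, the methionine enzyme, on the opposite strand. Mars was at 0.02 ± 0.08 in GLAD and fell by 0.24 ± 0.08 in TIN and 0.44 ± 0.08 in the double mutant.

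Most of the 7 cytosolic genes outside the ATF4 list went down. In GLAD 0 rose and 5 fell (median -0.27), in TIN 0 rose and 5 fell (median -0.29), and in the double mutant 1 rose and 6 fell (median -0.29). Of all genes 26.2% fell in GLAD, 28.6% in TIN and 30.3% in the double mutant. Leaving out GLAD hypoxia library A left 2 of the 5 GLAD calls in number, and leaving out GLAD normoxia library B left 3, as did testing all genes with no filter. Leaving out double normoxia library B or double hypoxia library B left 4 calls in the double mutant.

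Farsa and Farsb encode the catalytic and the partner subunit of 1 enzyme, the cytosolic phenylalanine synthetase, and both fell in every mutant. Farsb (ENSMUSG00000026245, GRCm38 chromosome 1, 78417975 to 78488897) stood at 42.8 and 45.8 CPM in GLAD normoxia against 26.6 and 28.6 CPM in hypoxia, and at 53.3 and 52.8 CPM in double-mutant normoxia against 44.9 and 40.4 CPM in hypoxia. In TIN it stood at 93.1 and 95.8 CPM in normoxia, higher than in any other group, and at 44.2 and 41.8 CPM in hypoxia. The falls were by 0.67 ± 0.09 in GLAD (adjusted p = 1.1e-05), by 1.13 ± 0.09 in TIN (1.5e-08) and by 0.31 ± 0.09 in the double mutant (0.00792), and by 0.70 ± 0.05 on average. Farsa (ENSMUSG00000003808, GRCm38 chromosome 8, 84856989 to 84869257) stood at 55.4 and 55.8 CPM in GLAD normoxia and 44.3 and 47.3 CPM in hypoxia, at 86.2 and 78.1 CPM in TIN normoxia and 61.8 and 61.8 CPM in hypoxia, and at 66.5 and 65.9 CPM in double-mutant normoxia and 52.9 and 49.7 CPM in hypoxia. It fell by 0.28 ± 0.09, 0.41 ± 0.09 and 0.36 ± 0.09 in GLAD, TIN and the double mutant. Within each mutant the oxygen groups of both subunits did not overlap. Farsb shares 9.47% of its exon bases with Sgpp2, which stayed under 1 CPM in every library.

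Qars, which charges glutamine (ENSMUSG00000032604, GRCm38 chromosome 9, 108507706 to 108515941), stood at 133 and 137 CPM in GLAD normoxia and 95.8 and 97.7 CPM in hypoxia. It stood at 160.4 and 151 CPM in TIN normoxia and 132 and 123 CPM in hypoxia, and at 162 and 157 CPM in double-mutant normoxia and 95.8 and 93.9 CPM in hypoxia. All 6 hypoxia libraries lay below all 6 normoxia libraries of the mutants. Qars fell by 0.47 ± 0.07 (adjusted p = 2.8e-05), 0.29 ± 0.07 (0.00249) and 0.75 ± 0.07 (6.8e-08) in GLAD, TIN and the double mutant, in that order. Rars, the arginine enzyme, fell by 0.21 to 0.23 in each mutant, with an SE of 0.08. Kars, whose 1 gene provides the lysine enzyme of cytosol and mitochondria, stood at 167 and 186 CPM in GLAD normoxia against 143 and 149 CPM in hypoxia, and fell by 0.27 ± 0.09. In TIN it stood at 255 and 258 CPM against 233 and 236 CPM (-0.13 ± 0.09, not called), and in the double mutant at 198 and 198 CPM against 173 and 164 CPM, a fall by 0.23 ± 0.09.

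Dars, the aspartate enzyme, was the exception among these 7 (ENSMUSG00000026356, GRCm38 chromosome 1, 128363707 to 128417368). In the double mutant it rose by 0.52 ± 0.10 (adjusted p = 1.4e-04), from 70.2 and 67.3 CPM to 99.8 and 97.8 CPM, the highest of any group. In TIN it fell by 0.72 ± 0.10 (adjusted p = 4.9e-06), from 71.0 and 75.6 CPM to 43.0 and 45.6 CPM, the lowest of any group. In GLAD it stood at 64.8 and 66.1 CPM in normoxia and 57.1 and 59.0 CPM in hypoxia (-0.17 ± 0.10, not called). In normoxia the 3 mutants did not differ in Dars by any call.

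**Figure D2:**
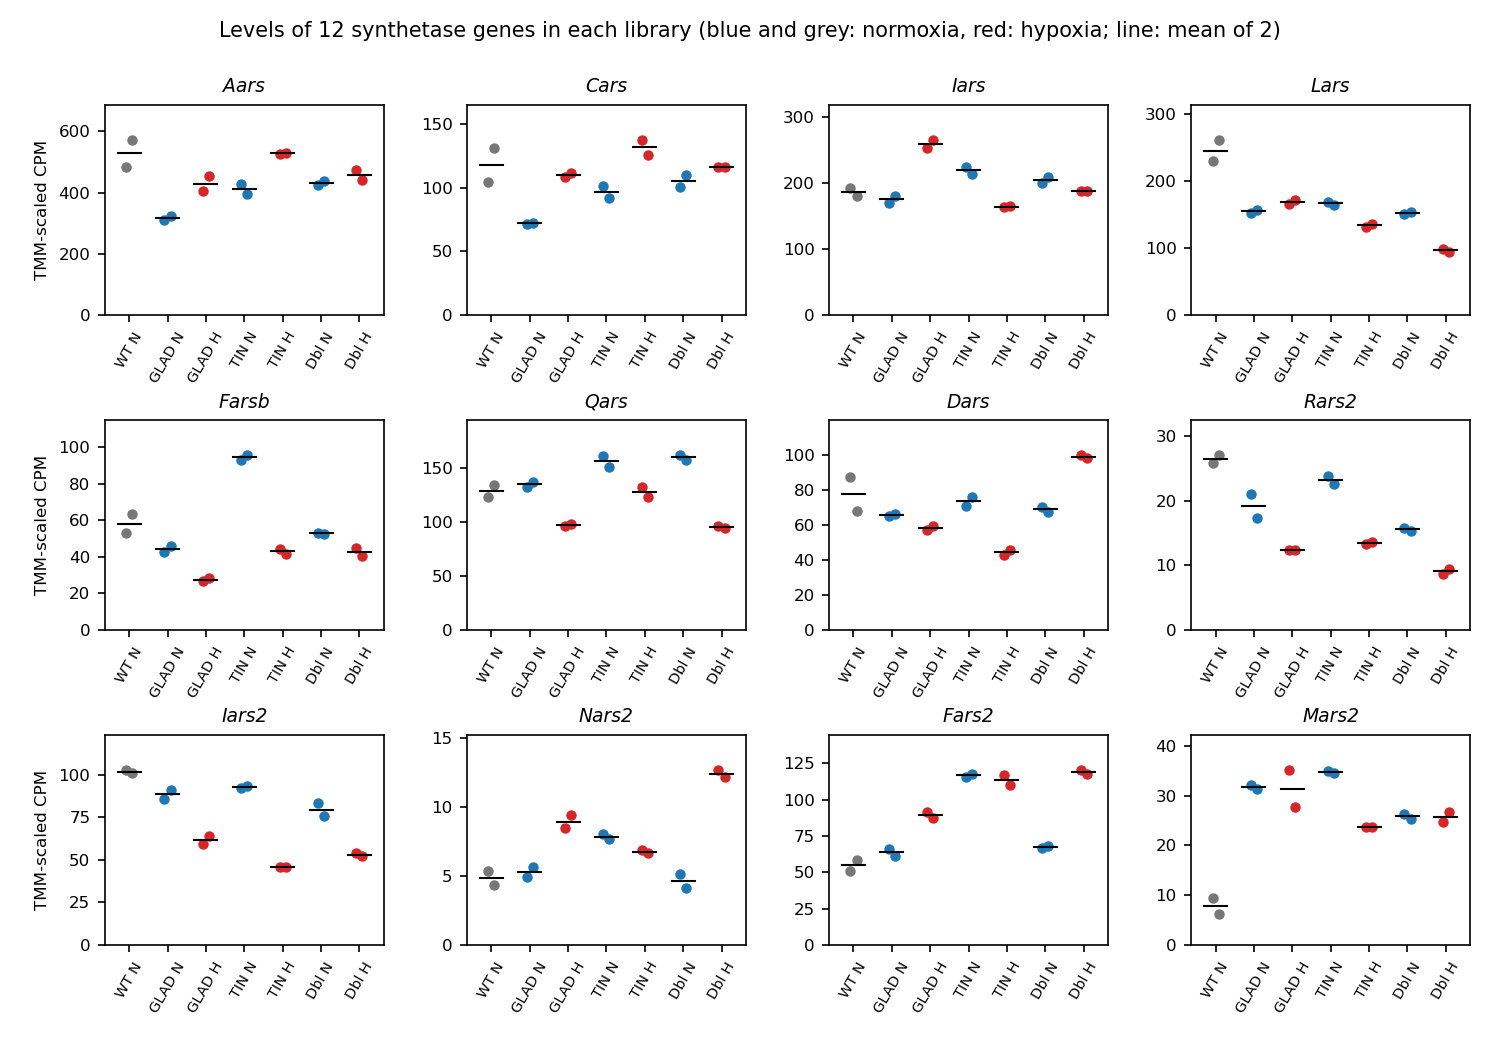
Each point is 1 library and each line the mean of the 2 libraries of a group (TMM-scaled CPM, axes from 0) for 12 synthetase genes, with wild type in grey, mutants in normoxia in blue and mutants in hypoxia in red. Iars and Dars go up in 1 mutant and down in another, Farsb has its highest level in TIN normoxia, and Mars2 is lowest in wild type.

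The multisynthetase complex holds 8 enzyme genes of the family, Dars, Eprs, Iars, Kars, Lars, Mars, Qars and Rars, on 3 scaffold proteins. Of the 8 enzymes 2 rose and 3 fell in GLAD, 0 rose and 7 fell in TIN and 1 rose and 6 fell in the double mutant. The shares of all genes called were 48.1% (26.2% down), 54.1% (28.6% down) and 56.1% (30.3% down) in the same order. The scaffold gene Aimp2 went the other way: it stood at 50.5 to 76.3 CPM in the 6 normoxia libraries of the mutants and at 125 to 154 CPM in the 6 hypoxia libraries. Aimp2 rose by 1.05 ± 0.11 in GLAD, 0.89 ± 0.11 in TIN and 1.55 ± 0.11 in the double mutant. Aimp2 shares 29.4% of its exon bases with Eif2ak1 on the opposite strand, a kinase gene that rose by 0.40 to 0.44, and the part of those shared bases in the Aimp2 values was not tested. The scaffold gene Eef1e1 fell on average by 0.32 ± 0.07, and Aimp1 rose by 0.16 ± 0.06. Outside the complex, 5 of 12 cytosolic enzymes rose and 2 fell in GLAD, 2 rose and 3 fell in TIN, and 0 rose and 6 fell in the double mutant.

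Among mitochondrial enzymes, those for arginine, isoleucine and valine fell in every mutant. Rars2 (ENSMUSG00000028292, GRCm38 chromosome 4, 34614957 to 34660167) stood at 15.4 to 23.9 CPM in the 6 normoxia libraries of the mutants and at 8.72 to 13.7 CPM in the 6 hypoxia libraries. It fell by 0.61 ± 0.12, 0.76 ± 0.12 and 0.74 ± 0.12 in GLAD, TIN and the double mutant, and by 0.71 ± 0.07 on average (adjusted p = 3.4e-08). Iars2 (ENSMUSG00000026618, GRCm38 chromosome 1, 185284726 to 185329396) stood at 86.0 and 91.2 CPM in GLAD normoxia and 59.4 and 64.1 CPM in hypoxia, at 92.3 and 93.4 CPM in TIN normoxia and 45.7 and 45.8 CPM in hypoxia, and at 83.3 and 75.4 CPM in double-mutant normoxia and 54.0 and 52.1 CPM in hypoxia. It fell by 0.52 ± 0.08, 1.01 ± 0.08 and 0.58 ± 0.08, and no normoxia library of a mutant was as low as the highest hypoxia library. Iars2 shares 22.9% of its exon bases with Rab3gap2 on the opposite strand, and Rab3gap2 changed by 0.27, -0.22 and 0.27 in GLAD, TIN and the double mutant. Vars2 (ENSMUSG00000038838, GRCm38 chromosome 17, 35655634 to 35667592) went from 27.2 and 24.5 CPM to 18.2 and 20.2 CPM in GLAD, from 46.8 and 45.1 CPM to 33.9 and 33.2 CPM in TIN, and from 39.4 and 34.1 CPM to 20.2 and 24.3 CPM in the double mutant. It fell by 0.42 ± 0.12, 0.45 ± 0.12 and 0.71 ± 0.12.

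A smaller set of mitochondrial enzymes rose in GLAD and in the double mutant and was not called in TIN: Nars2, Cars2 and Fars2. Nars2 (ENSMUSG00000018995, GRCm38 chromosome 7, 96951505 to 97064758) stood at 4.90 and 5.68 CPM in GLAD normoxia and 8.47 and 9.44 CPM in hypoxia, a rise of 0.71 ± 0.16 (adjusted p = 0.00114). In TIN it stood at 8.03 and 7.67 CPM in normoxia and 6.88 and 6.67 CPM in hypoxia (-0.20 ± 0.16). In the double mutant it stood at 5.15 and 4.16 CPM in normoxia and 12.7 and 12.2 CPM in hypoxia, a rise of 1.33 ± 0.16 (adjusted p = 9.4e-07), the largest rise of any synthetase. Fars2, the mitochondrial phenylalanine enzyme, which works as a single chain, rose by 0.48 ± 0.08 in GLAD and 0.81 ± 0.08 in the double mutant and stood at -0.04 ± 0.08 in TIN. Cars2 rose by 0.54 ± 0.11 in GLAD and by 0.54 ± 0.11 in the double mutant, with 0.18 ± 0.11 in TIN. Fars2 shares 8.72% of its exon bases with Nrn1 on the opposite strand, which changed by 0.59, -0.19 and 1.01 in the same order, and Cars2 shares 5.83% with Naxd, at 0.35, 0.44 and 0.14. The part of these neighbours in the synthetase values was not tested.

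Several other mitochondrial enzymes fell in TIN. Wars2 (tryptophan) fell there by 1.00 ± 0.12, from 21.7 and 20.0 CPM to 10.9 and 9.48 CPM, while GLAD had -0.24 ± 0.12 and the double mutant -0.16 ± 0.12, neither of which was called. Ears2 (glutamate; ENSMUSG00000030871, GRCm38 chromosome 7, 122037213 to 122067263) stood at 9.57 and 10.8 CPM in TIN normoxia and 5.57 and 5.22 CPM in hypoxia, and fell by 0.85 ± 0.15. In GLAD Ears2 stood at 6.10 and 5.82 CPM and then at 6.32 and 6.58 CPM (0.10 ± 0.15, not called), and in the double mutant it fell by 0.39 ± 0.15, from 5.25 and 6.07 CPM to 4.39 and 3.98 CPM. Yars2 (tyrosine) fell by 0.61 ± 0.14 in TIN and rose by 0.35 ± 0.14 in the double mutant. Hars2 and Tars2, for histidine and threonine, fell in the double mutant (-0.59 ± 0.10 and -0.60 ± 0.10) and were not called in GLAD or TIN. In total 3 of 17 mitochondrial genes rose and 4 fell in GLAD, 0 rose and 8 fell in TIN, and 4 rose and 8 fell in the double mutant. Over all genes 21.9% rose and 26.2% fell in GLAD, 25.5% and 28.6% in TIN, and 25.8% and 30.3% in the double mutant. The number of mitochondrial genes called in GLAD and in TIN was thus not above that of genes in general.

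Mitochondria make glutamine-charged tRNA by a different route, charging it with glutamate first and converting it with the amidotransferase of Qrsl1, Gatb and Gatc, while Mtfmt formylates the starting methionine. All 4 of these genes fell on average (median -0.41), where 30.4% of all genes rose and 37.1% fell. Gatb fell by 1.21 ± 0.11, from 7.62 to 12.2 CPM in the 6 normoxia libraries of the mutants to 2.72 to 5.02 CPM in the 6 hypoxia libraries, and Qrsl1 fell by 0.45 ± 0.08. Of 10 mitochondrial translation factors 1 rose and 6 fell on average, led by Mtrf1 (-0.74 ± 0.11) and Gfm2 (0.54 ± 0.05). Of 6 cytosolic elongation factors 3 rose and 2 fell, led by Eif5a (-0.48 ± 0.05) and Eef1d (0.31 ± 0.06).

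Enzymes for the same amino acid in the 2 compartments were set side by side for the hypoxia average, with Eprs standing for glutamate and for proline and Farsa for phenylalanine, which makes 17 pairs. Both partners were called in 6 pairs. Over all genes 67.5% were called in this average (30.4% up, 37.1% down), so pairs with both partners called are common among genes in general. The share for pairs of other genes is not given here. On average Cars with Cars2 and Nars with Nars2 rose together, and Hars with Hars2, Rars with Rars2 and Vars with Vars2 fell together. The average hides differences between mutants: in the double mutant Nars fell while Nars2 rose. Phenylalanine was the 1 pair with opposite calls, Farsa at -0.35 ± 0.05 and Fars2 at 0.42 ± 0.05. Fars2 shares exon bases with Nrn1, whose part in this value was not tested. In 7 pairs the mitochondrial enzyme fell on average while the cytosolic one was not called. Among these cytosolic partners Eprs and Iars were called in opposite directions in different mutants. Hars and Hars2 share 195 exon bases on opposite strands, and the strand setting of the counting was not given in the sources used here.

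The differences between mutants in the response to hypoxia were tested as interaction terms. For TIN minus GLAD, 7 of 20 cytosolic genes were called and all 7 were lower in TIN, and 5 of 17 mitochondrial genes were called, also lower in TIN, against 33.9% of all genes (16.3% higher, 17.5% lower). For the double mutant minus GLAD, 1 cytosolic gene was higher and 6 were lower, and 2 mitochondrial genes were lower, against 14.6% of all genes (6.96% higher, 7.63% lower). For the double mutant minus TIN, 3 cytosolic genes were higher and 3 lower, and 6 mitochondrial genes were higher and 2 lower, against 42.9% of all genes (21.5% higher, 21.3% lower). Iars differed most in the cytosol between TIN and GLAD, by -0.98 ± 0.10 (adjusted p = 1.2e-06), and Ears2 in mitochondria by -0.96 ± 0.21 (0.00223). Between the double mutant and GLAD, Lars differed by -0.78 ± 0.10 (5.5e-05) and Dars by 0.69 ± 0.14 (0.00188). Between the double mutant and TIN, Nars2 differed by 1.53 ± 0.22 (3.4e-05) and Dars by 1.24 ± 0.14 (1.6e-06). The wild-type libraries, with the widest spread, enter the shared variance. Without them 9 mitochondrial genes were called for TIN minus GLAD, 13 cytosolic and 5 mitochondrial for the double mutant minus GLAD, and 10 cytosolic for the double mutant minus TIN. Leaving out TIN hypoxia library B left 3 cytosolic and 5 mitochondrial calls for the double mutant minus TIN, and leaving out double normoxia A also left 5 mitochondrial ones. The count of 2 mitochondrial calls for the double mutant minus GLAD (6 at unadjusted p under 0.05 in limma, 3 higher and 3 lower) became 0 without GLAD normoxia B, double normoxia A or GLAD hypoxia A, and 1 without double normoxia B or GLAD hypoxia B. It became 5 without a single wild-type library, A or B.

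In normoxia 25 of the 37 synthetase genes were lower in GLAD than in wild type, 22 were lower in the double mutant and 14 in TIN, where 10 were higher. Against wild type 15 of 20 cytosolic genes were lower and 0 higher in GLAD (median -0.44), 11 lower and 4 higher in TIN (median -0.22), and 13 lower and 1 higher in the double mutant (median -0.29). Over all genes 55.3% were called for GLAD (26.7% higher, 28.6% lower), 60.3% for TIN (31.4% higher, 28.9% lower) and 56.8% for the double mutant (28.4% higher, 28.3% lower), with medians of -0.02, 0.02 and -0.01. Of the mitochondrial genes 10 were lower and 2 higher in GLAD, 3 lower and 6 higher in TIN, and 9 lower and 2 higher in the double mutant. All 3 comparisons share the wild-type libraries, and any batch of those libraries would enter each. The model applies the same spread to all groups, while libraries A and B differed most in wild type. The SE and p-values against wild type can therefore be too small. The 5 ribosomal RNA-like genes summed to 8460 and 2380 CPM in wild type and to 942 to 1840 CPM in the normoxia libraries of the mutants. All 5 were lower than wild type in GLAD (median -1.40) and in the double mutant (median -1.58), and 3 of 5 in TIN (median -1.12). Their part in the differences from wild type was not tested. Aars, Eprs, Gars, Lars, Nars, Rars, Sars, Tars, Yars, Hars2 and Tars2 were lower in all 3, and Mars2 and Fars2 higher in all 3. For calls in all 3 comparisons, which share the wild-type libraries, the share over all genes is not given here. With only the 2 groups of a comparison in the fit, 7 cytosolic genes were called for TIN and 9 for the double mutant. Without double normoxia A 8 cytosolic genes were called for the double mutant, and without GLAD normoxia B 7 mitochondrial genes were called for GLAD.

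Mars2, the mitochondrial methionine enzyme, had the largest difference of the family from wild type (ENSMUSG00000046994, GRCm38 chromosome 1, 55237177 to 55248470). It stood at 9.49 and 6.15 CPM in wild type, 32.2 and 31.4 CPM in GLAD, 34.9 and 34.6 CPM in TIN and 26.4 and 25.4 CPM in the double mutant, all in normoxia. In hypoxia it stood at 35.2 and 27.7 CPM in GLAD, 23.8 and 23.7 CPM in TIN and 24.7 and 26.7 CPM in the double mutant. Both wild-type libraries were below all 12 others. The difference from wild type was 1.99 ± 0.15 in GLAD (adjusted p = 2.8e-09), 2.11 ± 0.15 in TIN (4.7e-10) and 1.69 ± 0.15 in the double mutant (1.8e-08). These SE use the spread shared by all groups, which can be too small for the wild-type libraries. Fars2 stood at 51.2 and 58.4 CPM in wild type, 66.0 and 61.4 CPM in GLAD, 116 and 118 CPM in TIN and 66.8 and 68.4 CPM in the double mutant, and was higher than wild type by 1.09 ± 0.08 in TIN (adjusted p = 9.0e-10). Cars2 showed the largest deficit, -0.93 ± 0.11 in GLAD (adjusted p = 7.6e-07), with 29.2 and 32.1 CPM in wild type and 15.2 and 16.5 CPM in GLAD. Rars2 was lower than wild type in the double mutant by 0.74 ± 0.12 on the log2 scale (-0.74; adjusted p = 3.3e-05), at 15.8 and 15.4 CPM against 25.8 and 27.1 CPM.

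**Figure D3:**
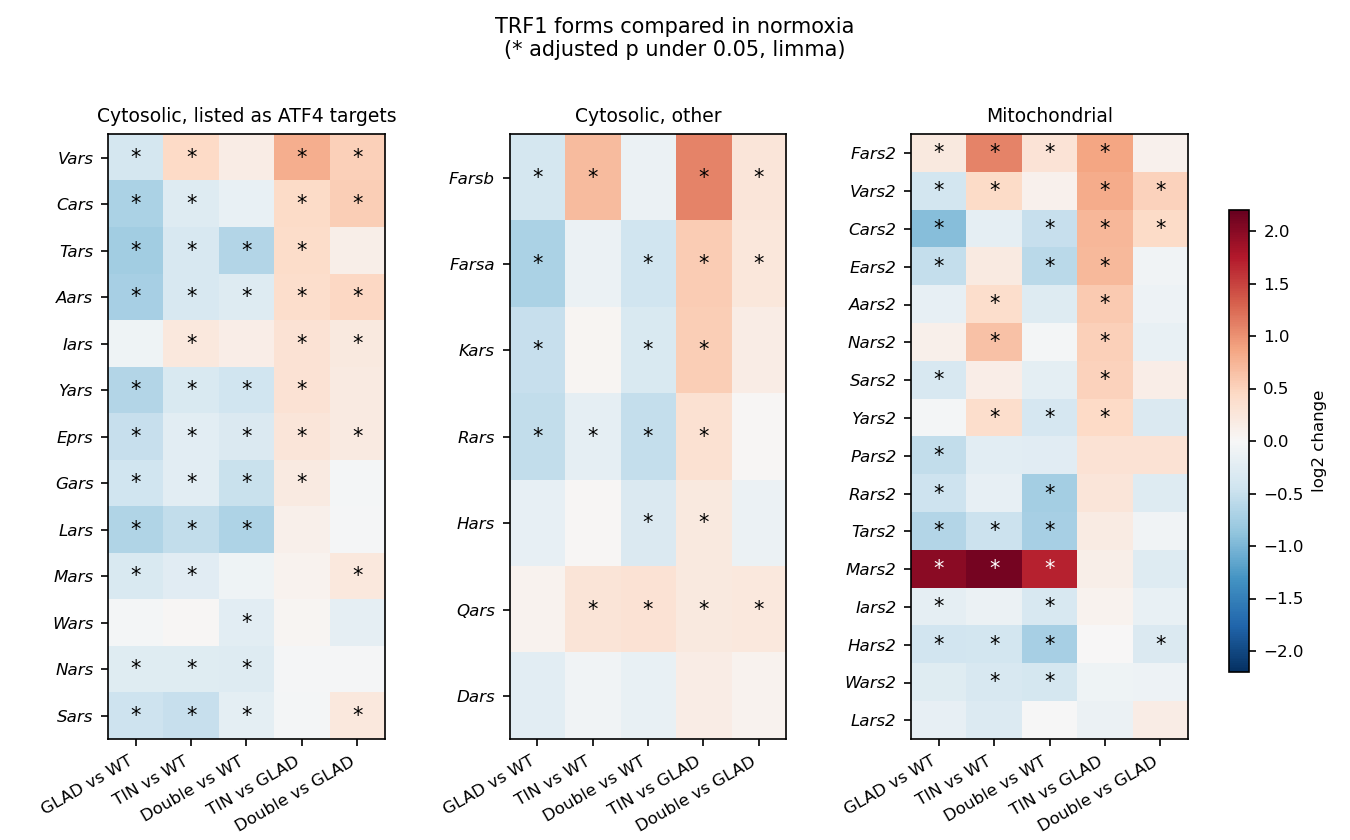
Colour gives the log2 difference between TRF1 forms in normoxia for each synthetase (1 row per gene), for the 3 mutants against wild type and for TIN and the double mutant against GLAD; an asterisk marks adjusted p under 0.05 (limma). In the TIN against GLAD column 14 of the 20 cytosolic and 8 of the 16 mitochondrial genes drawn are called higher and 0 lower.

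Between mutants in normoxia, 23 of the 37 synthetase genes were higher in TIN than in GLAD and 14 were not called. The same GLAD normoxia libraries enter both comparisons with GLAD in this paragraph. They also enter GLAD against wild type, hypoxia in GLAD and the interactions with GLAD. Low values in those libraries would shift all of these results together, so they are not independent of each other. Higher in TIN were 14 of 20 cytosolic genes (median 0.29) and 9 of 17 mitochondrial genes (median 0.43), and 0 were lower, against 28.0% of all genes higher and 23.9% lower (51.9% called; median 0.05). Of the 5 ribosomal RNA-like genes 2 were higher in TIN (median 0.66). Farsb was higher in TIN by 1.09 ± 0.09 (adjusted p = 1.6e-08) and Fars2 by 0.87 ± 0.08 (3.4e-08), so that genes of both phenylalanine enzymes led the comparison. Nrn1, which shares exon bases with Fars2, stood at 116.7 and 112.2 CPM in GLAD and 242.4 and 252.1 CPM in TIN. Its part in the Fars2 difference was not tested. Vars, the valine enzyme, was higher by 0.80 ± 0.08, at 311 and 285 CPM in TIN against 166 and 175 CPM in GLAD. Without GLAD normoxia A 8 cytosolic genes were called, and without TIN normoxia A 9. The double mutant against GLAD had 10 cytosolic genes higher and 0 lower, and 2 mitochondrial genes higher and 1 lower, against 35.7% of all genes (18.9% higher, 16.7% lower). Cars (0.54 ± 0.09; adjusted p = 1.8e-04) and Vars (0.53 ± 0.08; 3.4e-05; 241 and 252 CPM in the double mutant) led it. Without GLAD normoxia A or B, 1 library left out at a time, 3 cytosolic genes were called, without double normoxia A or B 4, and with no filter 5. Without the wild-type libraries 7 mitochondrial genes were called, and without GLAD normoxia A 1.

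The double mutant against TIN in normoxia had 1 cytosolic gene higher and 9 lower, and 0 mitochondrial genes higher and 14 lower, against 48.4% of all genes (23.1% higher, 25.3% lower; median -0.04). Farsb (-0.83 ± 0.09; adjusted p = 7.0e-07) and Ears2 (-0.79 ± 0.15; 2.6e-04) differed most. The mitochondrial median was -0.37 and the cytosolic one -0.12. Of the 5 ribosomal RNA-like genes 3 were lower in the double mutant (median -0.79). Without double normoxia A 4 cytosolic and 9 mitochondrial genes were called, without TIN normoxia A 5 and 7, and without double normoxia B 7 mitochondrial genes.

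Wars, the tryptophan enzyme, is known to be induced by interferon gamma, and TIN stood apart in genes of that response. Of 13 interferon gamma response genes 12 were lower in TIN than in GLAD in normoxia and 0 higher (median -3.41). Among all genes 23.9% were lower and 28% higher. Wars stood at 71.5 and 79.0 CPM in wild type, 70.0 and 76.7 CPM in GLAD, 80.0 and 72.3 CPM in TIN and 65.1 and 62.2 CPM in the double mutant. The TIN and GLAD libraries overlapped, with a difference of 0.05 ± 0.09. In hypoxia Wars stood at 68.1 and 73.3 CPM in GLAD, 74.2 and 72.3 CPM in TIN and 60.1 and 52.2 CPM in the double mutant, and it was called in none of the hypoxia comparisons. It was lower in the double mutant than in wild type (-0.24 ± 0.09) and than in TIN (-0.26 ± 0.09).

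Lars2 was called in no comparison, and its 2 libraries differed more than those of any other synthetase. It stood at 786 and 268 CPM in wild type A and B and at 568 and 366 CPM in double-mutant normoxia. In the other groups A and B were close, at 412 and 399.9 CPM in GLAD normoxia, 359.5 and 385 CPM in TIN normoxia, 459 and 470.0 CPM in GLAD hypoxia, 334 and 314 CPM in TIN hypoxia and 637 and 632 CPM in double-mutant hypoxia. The ribosomal RNA-like genes Gm42418 and AY036118 moved with it where A and B differed. Gm42418 stood at 3955 and 1042 CPM in wild type and at 878 and 527 CPM in double-mutant normoxia, and AY036118 at 3436 and 903 CPM and at 770.1 and 462 CPM. Their part in the Lars2 values was not tested.

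**Figure D4:**
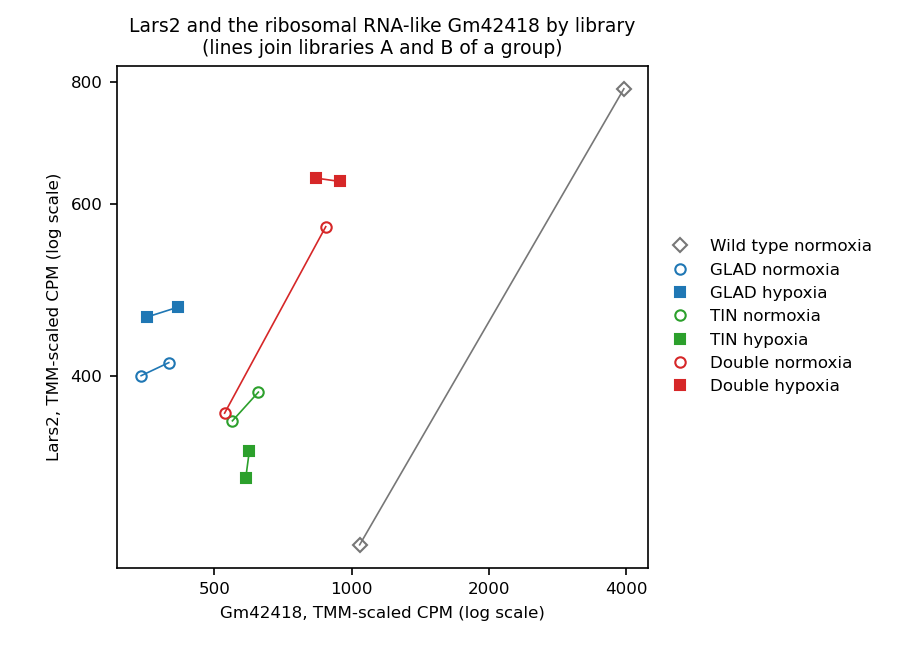
Each symbol is 1 library, placed by its level of Gm42418 (x) and of Lars2 (y), both in TMM-scaled CPM on log axes, with a line joining libraries A and B of a group. The wild-type pair spans 1042 to 3955 CPM of Gm42418 and 268 to 786 CPM of Lars2, and the double-mutant normoxia pair 527 to 878 CPM and 366 to 568 CPM.

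Of the genes around the family, Tarsl2, a threonine synthetase gene outside the symbol rule, stood at 11.5 and 10.4 CPM in wild type, 24.5 and 24.3 CPM in GLAD normoxia and 31.3 and 30.7 CPM in GLAD hypoxia. It stood at 19.7 and 19.6 CPM in TIN normoxia and 19.3 and 22.0 CPM in TIN hypoxia, and at 15.8 and 15.8 CPM in double-mutant normoxia and 25.4 and 20.2 CPM in hypoxia. It rose in GLAD by 0.34 ± 0.12 and in the double mutant by 0.51 ± 0.12. Tars, the main cytosolic threonine enzyme, rose in GLAD by 0.32 ± 0.08 and was at 0.01 ± 0.08 in the double mutant. Of 8 genes for editing of mischarged tRNA, selenocysteine synthesis and tRNA supply, Dtd1 and Dtd2 changed most on average, by -0.51 ± 0.09 and -0.46 ± 0.10. Xpot, the export receptor of tRNA, went in opposite directions in GLAD (0.40 ± 0.08) and TIN (-0.64 ± 0.08).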

How the data were processed

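RNA of 14 libraries in 7 groups had been sequenced in bulk. The deposited values are CPM, read counts per gene scaled by the authors to a common total per library. Per the submitters' processing notes STAR and HTSeq were used, with the builds GRCm38.p4 and mm10. For versions, annotation release and strand setting the sources used here say nothing, and genes that share exon bases may therefore share reads. Of the 52636 Ensembl genes 52403 had a symbol. Gene positions and exon lengths are those of GENCODE M21 on GRCm38.

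CPM were scaled by TMM factors (0.956 to 1.04, after trimming 30% of log ratios and 5% of levels), 0.5 CPM was added and log2 taken. The filter asked for 1 CPM or more in 2 or more libraries and kept 16157 of the 32273 genes above 0. A model of 7 group means was fitted with limma 3.58.1 in R 4.3.3 (7 residual and 11.3 prior degrees of freedom, variance moderated along mean level). P-values of the 13 comparisons were adjusted by the Benjamini-Hochberg method over all genes, and the fit was tested on simulated data. Depth was estimated from the steps of the low CPM, of which 99.3% to 100% fitted whole reads in each library; the floor of 3 reads covers counting error only, and no count model was fitted.

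The members and lists were chosen with earlier results of these data known. Values per library are given for the called genes with the largest average hypoxia change (6 cytosolic, 4 mitochondrial), the 2 genes with the largest difference in every other kind of comparison, and Wars, Kars, Gars and Tarsl2. The library values of Wars2 were added after they were seen. A mitochondrial member counted among the 37, and a gene of a context list, are not reported by name here. The letters A and B were not used as pairs.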

Additional observations from a re-analysis of the deposited data

Results flagged for a closer look

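In 6 cases the hypoxia effect of a synthetase differed between mutants by the interaction test (limma, Benjamini-Hochberg adjustment over all 16157 genes) and was among the 2 largest differences of its comparison. For TIN minus GLAD these were Iars at -0.98 ± 0.10 (SE; adjusted p = 1.2e-06), which rose in GLAD and fell in TIN, and Ears2 at -0.96 ± 0.21 (adjusted p = 0.00223). For the double mutant minus GLAD they were Lars at -0.78 ± 0.10 (adjusted p = 5.5e-05) and Dars at 0.69 ± 0.14 (adjusted p = 0.00188). For the double mutant minus TIN they were Nars2 at 1.53 ± 0.22 (adjusted p = 3.4e-05) and Dars at 1.24 ± 0.14 (adjusted p = 1.6e-06), which rose in the double mutant and fell in TIN. Each mutant may be a single line, so these differences between mutants and differences between lines cannot be told apart.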

How the results depend on the processing

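The 28 single-gene results kept direction and call in all 610 settings tried for them. They had been chosen from the main fit as the largest changes of their comparison, so genes near the threshold were not covered. Of 742 settings tried for the 34 counts of called genes 687 stayed within 1.5 times of the main count. That limit compares the number called in either direction and does not follow rises and falls separately. Settings were another pseudocount, no scaling or median-of-ratios factors, no filter, the replicate block, the groups of the comparison alone, each library left out, and, chosen after seeing the data, both wild-type libraries left out. With the replicate block all 34 counts stayed within that limit (for the hypoxia average, 13 cytosolic and 14 mitochondrial genes were called with it and 13 and 13 without). The deviations of libraries with the same letter correlated by -0.16 to 0.32 over 11718 genes in 21 pairs of groups, above 0.1 in 7 of them, highest between GLAD normoxia and GLAD hypoxia. The letters are thus only in some groups a sign of libraries that deviate together, and the labels give them no meaning. Count-based tests on whole reads were not run, since the deposited CPM could not be turned back into reads well enough. With 2 libraries a group the spread within a group rests on the other groups too.

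With no filter, the calls were 3 for the genes outside the ATF4 list in GLAD hypoxia (5 in the main result), 1 mitochondrial for the double mutant minus GLAD (2) and 5 cytosolic for the double mutant against GLAD (10). With only the groups of the comparison, and equally without the wild-type libraries, they were 9 mitochondrial for TIN minus GLAD (5), 13 cytosolic for the double mutant minus GLAD (7), 10 cytosolic for the double mutant minus TIN (6; also 10 with no scaling factors) and 7 mitochondrial for the double mutant against GLAD (3). The mitochondrial count for the double mutant minus GLAD was 5 without wild type. With only the groups of the comparison, cytosolic calls were 7 for TIN against wild type (15) and 9 for the double mutant against wild type (14). The fits with only the groups of a comparison, or without wild type, hold fewer libraries. The cause of the different counts was not tested.

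Leaving out each library in turn gave these ranges. In hypoxia they were 2 to 6 for the genes outside the ATF4 list in GLAD, 7 to 15 for the cytosolic genes, 3 to 8 for the ATF4-listed and 4 to 7 for the unlisted ones in the double mutant. For interactions they were 5 to 9 mitochondrial for TIN minus GLAD, 5 to 13 cytosolic and 0 to 5 mitochondrial for the double mutant minus GLAD, and 3 to 10 cytosolic and 5 to 11 mitochondrial for the double mutant minus TIN. Against wild type they were 7 to 13 mitochondrial for GLAD and 8 to 17 cytosolic for the double mutant. Between mutants in normoxia they were 8 to 15 cytosolic for TIN against GLAD, 3 to 13 cytosolic and 1 to 7 mitochondrial for the double mutant against GLAD, and 4 to 11 cytosolic and 7 to 15 mitochondrial for the double mutant against TIN. For the cytosolic count in double-mutant hypoxia, 7 was reached without normoxia B or hypoxia B.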
